A study of Mus musculus with 2 samples.

Results

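The intermediate filaments of glia and neurons were followed here as 9 genes, Gfap, Vim, Nes, Synm, Ina, Nefl, Nefm, Nefh and Prph. They were taken by gene symbol from a deposited table of 19595 genes, and each of the 9 matched 1 row. The table holds counts of RNA from neural stem cells taken from the brain of ICR mice on embryonic day 13. Of its 2 libraries, 1 is from cells with Ccdc25 knocked down (labelled sh1, genotype KO) and 1 is the control (labelled psicor, genotype WT). The series is about the role of Ccdc25 in neurogenesis. The design text speaks of triplicates, but the table gives 1 count column per group, and it is not stated whether a column sums or pools cultures or comes from 1 of them. No difference below therefore has a replicate check, no p-value was computed, and every 95% interval covers counting error only.

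Intermediate filaments are rope-like polymers of the cytoskeleton whose subunits share a central coiled-coil rod. Which subunits a neural cell makes follows its type and maturity. Neural progenitors and radial glia assemble vimentin with nestin, astrocytes add glial fibrillary acidic protein, early neurons make alpha-internexin, and maturing axons fill with the neurofilament light, medium and heavy chains. Synemin needs a partner such as vimentin to enter a filament, and peripherin is known above all from peripheral and spinal motor neurons.

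The knockdown library assigned 16058407 counts to genes and the control library 16549682. Levels are given as counts-per-million (CPM) after scaling both libraries with edgeR's TMM factors, and a floor of 3 counts stands for 0.190 CPM in the knockdown and 0.178 CPM in the control library. Ccdc25 itself stood at 26.1 CPM in the knockdown and 32.8 CPM in the control library, a ratio of 0.794 (0.697 to 0.904). Of 3149 genes within 1.5-fold of its mean CPM, 54.0% had a smaller absolute log2 fold than its -0.33, so the lower level of the targeted gene is not set apart from genes of like expression. The progenitor genes Sox2 and Fabp7 were well expressed in both libraries, Sox2 at 476 CPM in the knockdown and 288 CPM in the control library, and Fabp7 at 2714 CPM in the knockdown and 2146 CPM in the control library. All ratios and log2 folds are knockdown over control.

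RefSeq promoter windows of GRCm38.p6 were found for 6 of the 9 genes, Gfap, Vim, Nes, Synm, Ina and Prph. Shown here, from 250 bases before the annotated start to 20 after it, are the promoters of the member furthest above its control level (Gfap, chr11:102897181-102897450, minus strand), of the most abundant member, which lay close to its control level (Vim, chr2:13574061-13574330, plus strand), and of the most abundant of the members that were lower (Ina, chr19:47014431-47014700, plus strand). Capitals mark matches to 3 motifs searched on both strands, TTCNNNGAA of STAT factors, TATAAA of the TATA box and CANNTG of the E-box.
Gfap: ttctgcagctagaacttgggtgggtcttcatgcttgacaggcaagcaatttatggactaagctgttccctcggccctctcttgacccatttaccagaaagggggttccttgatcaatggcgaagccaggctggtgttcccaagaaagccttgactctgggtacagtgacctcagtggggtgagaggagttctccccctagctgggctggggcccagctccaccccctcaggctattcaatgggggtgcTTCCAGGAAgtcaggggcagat
Vim: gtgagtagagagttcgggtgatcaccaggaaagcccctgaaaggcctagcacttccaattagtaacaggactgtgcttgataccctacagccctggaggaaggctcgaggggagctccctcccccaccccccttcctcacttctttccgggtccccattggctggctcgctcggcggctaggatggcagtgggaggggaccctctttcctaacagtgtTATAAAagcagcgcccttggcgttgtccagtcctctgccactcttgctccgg
Ina: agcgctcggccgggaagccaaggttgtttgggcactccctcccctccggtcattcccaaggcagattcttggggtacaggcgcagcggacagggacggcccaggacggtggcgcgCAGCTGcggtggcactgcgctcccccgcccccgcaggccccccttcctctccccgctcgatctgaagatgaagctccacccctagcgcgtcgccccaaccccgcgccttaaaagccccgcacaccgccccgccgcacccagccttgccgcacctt
In the search windows, which run to 50 bases after the start, Gfap held 1 match to TTCNNNGAA, beginning at position -2 from its start, and the other 5 windows held 0. Such a match was present in 8.30% of 32851 RefSeq promoter windows of the same length. TATAAA occurred in the windows of Vim and Prph and in 13.6% of all windows. CANNTG occurred in those of Ina and Synm and in 72.3% of all. Matches to TTGGC, the core of nuclear factor I sites, were found in the windows of Vim, Synm, Ina and Prph and in 46.7% of all, and matches to GGGCGG, an Sp1 site, in those of Nes, Ina and Prph and in 35.7% of all. The stretches printed differed in base composition, with a GC content of 55.9% for Gfap, 58.9% for Vim and 70.4% for Ina. The stretches printed for Gfap and Vim lie inside the gene spans given for them below. The RefSeq starts used for these genes are therefore not their outermost annotated starts, and sequence further upstream was not searched. A match is a string of letters and not evidence of binding.

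The filament genes differed in both directions between the libraries. Gfap was far higher in the knockdown library, Synm, Ina, Nefl and Nefm were at least 2-fold lower, and Vim, Nes, Nefh and Prph lay within 2-fold. All 9 genes passed the minimum of 1 CPM as a mean of both libraries. Thus 1 of 9 was at least 2-fold higher and 4 of 9 at least 2-fold lower, beside 7.64% higher and 7.76% lower (15.4% in either direction) of the 14158 genes past the same minimum. At 1.5-fold, 1 member was higher and 5 were lower, Nefh being added, beside 16% higher and 15.7% lower (31.6% in either direction) of those genes. The median log2 fold of the 9 genes was -0.70, and that of all genes tested was -0.004. The median of the 9 is the value of Nefh itself, which rests on 13 counts in the knockdown and 23 in the control library. The interval of its ratio, 0.281 to 1.24, includes 1. The direction of each member was the same under each of the other scalings tried.

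**Figure D1:**
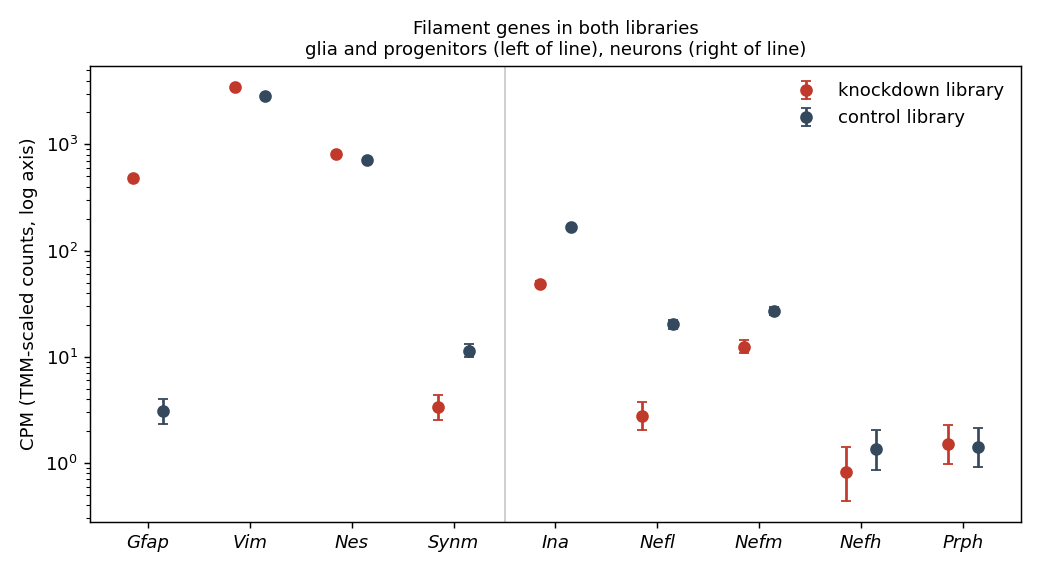
CPM (log axis) of each filament gene in the knockdown library (red) and the control library (dark), with exact Poisson 95% intervals of the count, genes of glia and progenitors left of the line and genes of neurons right of it. Gfap stands at 481 CPM in the knockdown and 3.09 CPM in the control library, Synm, Ina, Nefl and Nefm are lower in the knockdown library, and the intervals of Nefh and Prph overlap.

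Of the 4 filaments of glia and progenitors, Gfap, the filament protein of astrocytes, differed most. Gfap (ENSMUSG00000020932, chromosome 11, 102887336 to 102900912 on the minus strand in GRCm38 positions) had 7579 counts (481 CPM) in the knockdown and 52 counts (3.09 CPM) in the control library. The ratio was 156 (119 to 209) and the log2 fold 7.27. Gfap ranked 260th of all genes by CPM in the knockdown library and 12196th in the control library. Its fold was the 8th highest of the 14158 genes tested, and 0 of the 866 genes within 1.5-fold of its mean CPM lay above it.

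Vim, which encodes vimentin, the filament of progenitors, glia and mesenchymal cells, was the most abundant member in both libraries, also per kilobase. Vim (ENSMUSG00000026728, chromosome 2, 13573927 to 13582826, plus strand) had 55024 counts (3489 CPM) in the knockdown and 48512 counts (2879 CPM) in the control library. Its ratio was 1.21 (1.20 to 1.23), and it ranked 10th of all genes by CPM in the knockdown and 13th in the control library. Nes (ENSMUSG00000004891, chromosome 3, 87971078 to 87980451, plus strand) encodes nestin, the filament protein by which neural stem cells are commonly recognised. It had 12709 counts (806 CPM) in the knockdown and 11938 counts (708 CPM) in the control library, a ratio of 1.14 (1.11 to 1.17). Both genes were thus slightly higher in the knockdown library by more than counting error. The log2 fold of Vim was 0.28, beside 0.22 as the median absolute log2 fold of the 13 genes within 1.5-fold of its mean CPM. That of Nes was 0.19, beside 0.30 as the same median over 157 genes.

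Synm, which encodes synemin, a partner that joins vimentin or desmin filaments to other structures, was lower. Synm (ENSMUSG00000030554, chromosome 7, 67730160 to 67759742, minus strand) had 53 counts (3.36 CPM) in the knockdown and 193 counts (11.5 CPM) in the control library. The ratio was 0.293 (0.212 to 0.40), a log2 fold of -1.76, and 66 of 1640 genes of like expression lay lower. Its exons share 426 bases with Gm45102 and 84 bases with Ttc23 on the opposite strand, and whether strand was used in counting is not stated in the labels, so its counts are uncertain to that extent. Ttc23 was not lower, with 368 counts in the knockdown and 238 in the control library.

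Of the 5 neuronal filaments, 3 were at least 2-fold lower in the knockdown library. Ina, which encodes alpha-internexin, the filament of young neurons, carried most of their counts. Ina (ENSMUSG00000034336, chromosome 19, 47014698 to 47025327, plus strand) had 766 counts (48.6 CPM) in the knockdown and 2798 counts (166 CPM) in the control library. Its ratio was 0.293 (0.270 to 0.317), a log2 fold of -1.77, and 11 of 2143 genes of like expression lay lower. Ina shares 456 exonic bases with Nt5c2 on the opposite strand, and Nt5c2 had 733 counts in the knockdown and 810 in the control library.

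Nefl, which encodes the light chain on which neurofilaments assemble, was furthest below its control level among the members. Nefl (ENSMUSG00000022055, chromosome 14, 68083863 to 68089095, plus strand) had 44 counts (2.79 CPM) in the knockdown and 340 counts (20.2 CPM) in the control library, a ratio of 0.138 (0.0986 to 0.190). Its log2 fold of -2.84 was 84th from the bottom of all genes tested. Nefm (ENSMUSG00000022054, chromosome 14, 68082590 to 68124846, minus strand) encodes the medium chain. It had 196 counts (12.4 CPM) in the knockdown and 457 counts (27.1 CPM) in the control library, a ratio of 0.458 (0.386 to 0.543) and a log2 fold of -1.12. Nefl and Nefm lie on opposite strands and share 1108 exonic bases, 32.8% of the exonic length of Nefl and 19.2% of that of Nefm. Reads from the shared stretch cannot be told apart if counting ignored strand, so the split between these subunits is uncertain.

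Nefh, the heavy chain of mature axons, and Prph were scarce in both libraries. Nefh (ENSMUSG00000020396, chromosome 11, 4938754 to 4948064, minus strand) had 13 counts (0.824 CPM) in the knockdown and 23 counts (1.36 CPM) in the control library, a ratio of 0.604 (0.281 to 1.24). Prph (ENSMUSG00000023484, chromosome 15, 99055174 to 99058978, plus strand) had 24 counts in each library, 1.52 CPM in the knockdown and 1.42 CPM in the control library, a ratio of 1.07 (0.581 to 1.96). Both intervals include 1, so no difference was detectable at this depth, and the intervals leave room for a change of over 1.5-fold. In bulk RNA, fewer cells of a type and less RNA per cell cannot be told apart.

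**Figure D2:**
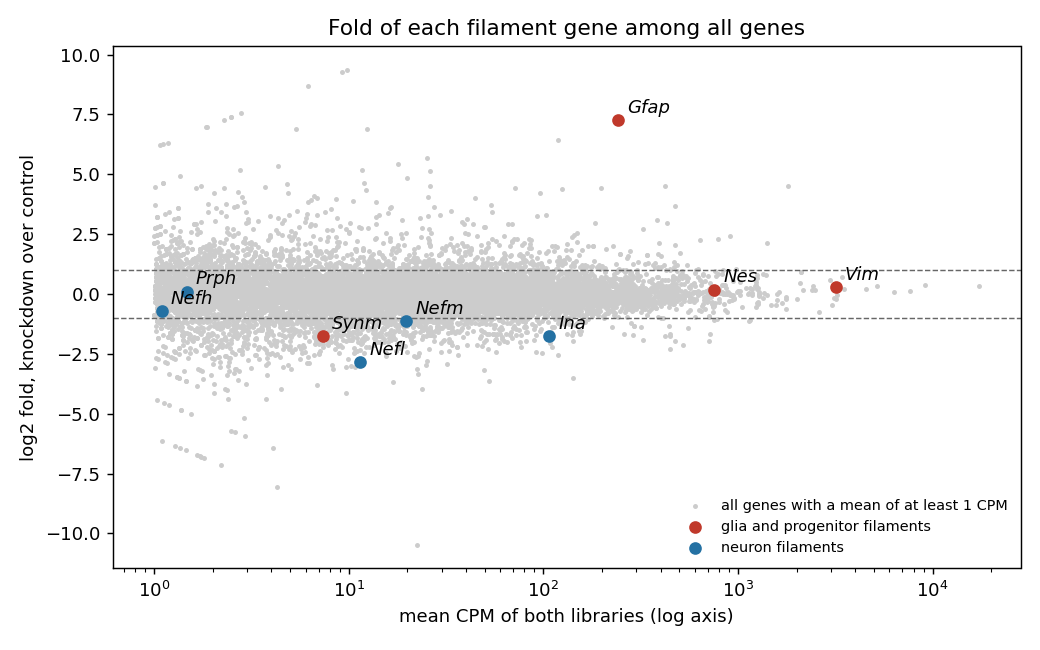
Log2 fold (knockdown over control) against the mean CPM of both libraries (log axis) for the 14158 genes whose mean reaches 1 CPM (grey), with filaments of glia and progenitors in red and of neurons in blue and dashed lines at 2-fold. Gfap lies at 7.27, Synm, Ina, Nefl and Nefm lie below the lower line, and the other 4 members lie between the lines.

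The genes with folds nearest to those of Gfap and Nefl were sought among the other 9832 protein-coding genes whose mean reached 10 CPM. Likeness here is a difference between log2 folds of 1 pair of libraries. Nearest to Gfap were Scrg1, with a log2 fold of 6.90, Gpr17, a receptor of immature oligodendrocytes, with 6.44, and Agt, the angiotensinogen gene, with 5.66. The fold of Scrg1 rests on 390 counts in the knockdown and 3 in the control library (interval of the ratio 47.2 to 677), and Gpr17 shares 188 exonic bases with Lims2 on the opposite strand, which had 551 counts in the knockdown and 13 in the control library. Nearest to Nefl were Ldb2 with -2.78, Vgf, a secreted neuropeptide precursor, with -2.92 and Slc32a1, the vesicular GABA transporter, with -2.98. Slc32a1 shares 697 exonic bases with an antisense gene.

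Levels of different filaments were compared per kilobase of exonic length, as CPM per kilobase. In the knockdown library the order was Vim at 736, Nes at 126, Gfap at 114, Ina at 15, Nefm at 2.15, Nefl at 0.825, Prph at 0.761, Synm at 0.424 and Nefh at 0.206. In the control library it was Vim at 607, Nes at 110, Ina at 51.2, Nefl at 5.97, Nefm at 4.69, Synm at 1.44, Gfap at 0.732, Prph at 0.712 and Nefh at 0.342. Gfap was thus in 3rd place in the knockdown library and in 7th place in the control library. Counting intervals of neighbours overlapped between Nefl and Prph, Prph and Synm, and Synm and Nefh in the knockdown library. In the control library they overlapped between Gfap and Prph and between Prph and Nefh. The length used matters for some neighbours. Per kilobase of the longest annotated transcript, Gfap at 181 stood above Nes at 132 in the knockdown library, and Nefm at 7.37 stood above Nefl at 5.97 in the control library.

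The summed filament RNA was higher in the knockdown library and its composition differed. The 9 genes had 76408 counts (4845 CPM) in the knockdown and 64337 counts (3818 CPM) in the control library, a ratio of 1.27 (1.26 to 1.28). They made up 0.476% of all counts in the knockdown and 0.389% in the control library. Of the difference of 1027 CPM between the sums, Vim contributed 610 CPM, Gfap 477 CPM and Nes 97.5 CPM, while Ina contributed -117 CPM. Without Gfap the sum still had a ratio of 1.14 (1.13 to 1.16).

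Gfap took 9.92% (9.71 to 10.1) of the summed filament counts in the knockdown and 0.0808% (0.0604 to 0.106) in the control library. All shares carry exact Clopper-Pearson 95% intervals and do not depend on how the libraries were scaled. Each of the other 8 members had a smaller share in the knockdown library, with overlapping intervals for Nefh and Prph. Vim held 72.0% (71.7 to 72.3) in the knockdown and 75.4% (75.1 to 75.7) in the control library, and Nes held 16.6% (16.4 to 16.9) in the knockdown and 18.6% (18.3 to 18.9) in the control library. The CPM of both were higher in the knockdown library. With Gfap left out of the sum, Vim held 79.9% in the knockdown and 75.5% in the control library, and Nes held 18.5% in the knockdown and 18.6% in the control library.

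The neuronal filaments together held 1.37% (1.28 to 1.45) of the filament counts in the knockdown and 5.66% (5.48 to 5.84) in the control library. Ina alone held 1.0% (0.933 to 1.08) in the knockdown and 4.35% (4.19 to 4.51) in the control library. Summed, they had 1043 counts in the knockdown and 3642 in the control library, a ratio of 0.306 (0.285 to 0.328). The sum of Gfap, Vim, Nes and Synm had 75365 counts in the knockdown and 60695 in the control library, a ratio of 1.33 (1.31 to 1.34). Without Vim that ratio was 1.78 (1.74 to 1.82). Gfap, with 7579 counts in the knockdown and 52 in the control library, carried most of that difference. Nes alone had a ratio of 1.14 and Synm 0.293.

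**Figure D3:**
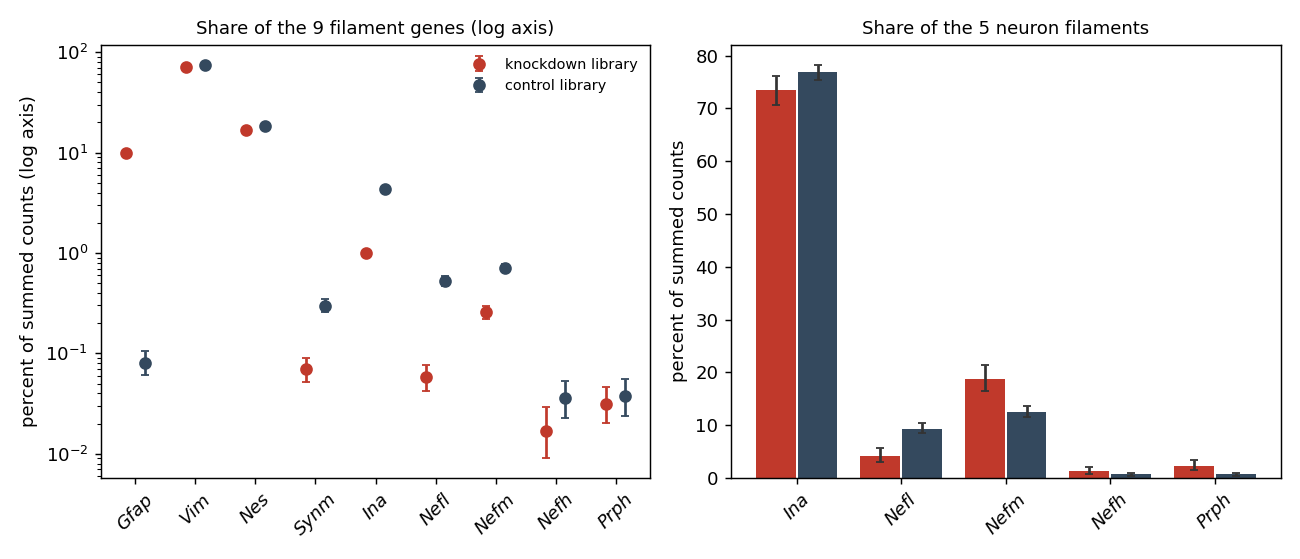
Left, percent of the summed counts of the 9 filament genes held by each gene (log axis), and right, percent of the summed counts of the 5 neuronal filaments, in the knockdown library (red) and the control library (dark), with exact 95% intervals. Gfap holds 9.92% in the knockdown and 0.0808% in the control library. Among the neuronal filaments, Nefl holds 4.22% in the knockdown and 9.34% in the control library. Nefm holds 18.8% in the knockdown and 12.5% in the control library. The split between Nefl and Nefm is uncertain because their exons overlap on opposite strands.

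The counts of the neurofilament subunits relative to each other also differed. The exonic overlap of Nefl and Nefm leaves the split between these 2 uncertain, which the counting intervals do not cover. Nefl, Nefm and Nefh chains and alpha-internexin are known to assemble into the same filaments in central axons. For every count of Nefm there were 0.224 (0.158 to 0.313) of Nefl in the knockdown and 0.744 (0.645 to 0.858) in the control library, so the intervals did not overlap. For every count of Ina there were 0.0574 (0.0414 to 0.0779) of Nefl in the knockdown and 0.122 (0.108 to 0.136) in the control library. Nefm was higher relative to Ina, with 0.256 (0.218 to 0.300) counts per Ina count in the knockdown and 0.163 (0.148 to 0.180) in the control library. Within the neuronal filaments, Ina held 73.4% (70.7 to 76.1) of the counts in the knockdown and 76.8% (75.4 to 78.2) in the control library. Prph held 2.30% (1.48 to 3.40) in the knockdown and 0.659% (0.423 to 0.979) in the control library, although its own CPM was about the same in both. The ratio of Nefh to Ina was 0.0170 (0.00900 to 0.0292) in the knockdown and 0.00822 (0.00520 to 0.0124) in the control library, with intervals that overlap.

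Among the filaments of glia, Gfap had 0.138 (0.134 to 0.141) counts per Vim count in the knockdown and 0.00107 (0.000800 to 0.00141) in the control library. Nes and Vim were closer in proportion, although their intervals did not overlap, with 0.231 (0.227 to 0.235) Nes counts per Vim count in the knockdown and 0.246 (0.241 to 0.251) in the control library. Synm was lower relative to Nes, with 0.00417 (0.00312 to 0.00546) counts per Nes count in the knockdown and 0.0162 (0.0140 to 0.0186) in the control library.

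Other intermediate filament genes and the partners of filaments were followed as lists. The background for their counts is the 7.64% of all tested genes that were at least 2-fold higher and the 7.76% that were lower. Of 36 listed genes (lamins, keratins, desmin, lens filaments and relatives), 18 had a row in the table and 10 passed the minimum, of which 1 was at least 2-fold higher and 0 lower, a count near that background. Their median log2 fold was 0.12, which was -0.11 without the expression minimum and -0.07 with a minimum of 10 CPM. Krt77, a keratin, was the 1 higher gene, with 25 counts in the knockdown and 13 in the control library, a ratio of 2.05 (1.01 to 4.37). The DESeq2, total-count and authors' scalings put it within 2-fold. The highest by mean CPM of both libraries was Lmnb1, the B-type lamin of the nuclear envelope, at 344 CPM in the knockdown and 441 CPM in the control library, a ratio of 0.780 (0.753 to 0.808). Lmnb2, the other B-type lamin, had a log2 fold of -0.14. Iffo1 stood at 72.2 CPM in the knockdown and 50.7 CPM in the control library, and Iffo2 at 13 CPM in the knockdown and 21 CPM in the control library. The keratin gene Krt10 had a log2 fold of 0.63 and Bfsp2, a lens filament gene, had 0.87 on 26 counts in the knockdown and 15 in the control library. Iffo2 shares 930 exonic bases with Gm21969 on its own strand, and Iffo1 shares 68 with Gapdh, Bfsp2 201 and Krt10 146 with genes on the opposite strand.

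Genes that link filaments to junctions, nucleus and other cytoskeleton numbered 18 past the minimum, 2 of them at least 2-fold higher and 0 lower, near the 15.4% of all tested genes in either direction. The median over these linkers was -0.13 on the log2 scale. Sun2, a nuclear envelope protein that binds nesprins, stood at 95.6 CPM in the knockdown and 39.4 CPM in the control library, a ratio of 2.43 (2.21 to 2.66), and shares 147 exonic bases with an antisense gene. Evpl, the envoplakin gene, had 34 counts in the knockdown and 8 in the control library, a ratio of 4.54 (2.06 to 11.4). Pkp4, a plakophilin, had a ratio of 0.574 (0.531 to 0.620) and Fbf1, which binds keratins, 1.54 (1.46 to 1.62). The crosslinker Macf1 had a log2 fold of -0.25 and Nudc -0.22. Plec, the plectin gene and the main crosslinker of vimentin and of glial filaments, was named for that role after its value was seen and had a ratio of 1.32 (1.19 to 1.48).

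Of 27 chaperones, turnover factors and enzymes that modify filaments, 3 were at least 2-fold higher and 2 lower, again near the 15.4% of all tested genes. The median of these genes on the log2 scale was -0.18. Padi2, a peptidylarginine deiminase known to citrullinate filament proteins, stood at 50.7 CPM in the knockdown and 1.42 CPM in the control library, a ratio of 35.6 (23.7 to 55.9). Capn1, the large subunit of a calpain protease, had a ratio of 2.84 (2.19 to 3.71). Cryab, the small heat shock protein alpha-B-crystallin, completes the 3 and is named after its value was seen, with 37.1 CPM in the knockdown and 17.1 CPM in the control library. Trim2, a ubiquitin ligase described for the neurofilament light chain in mice, stood at 26.3 CPM in the knockdown and 84.0 CPM in the control library, a ratio of 0.312 (0.279 to 0.349). Uchl1, an abundant neuronal deubiquitinase, had a ratio of 0.385 (0.365 to 0.405) and shares 295 exonic bases with an antisense gene. The chaperone Hspa8 had a log2 fold of -0.45 and the phosphatase subunit Ppp2ca -0.09. Capn1 shares 394 and Padi2 149 exonic bases with antisense genes, and Ppp2ca shares 2985 with a noncoding RNA on the opposite strand.

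Of 14 genes for the axonal transport of filaments, 3 were at least 2-fold lower and 0 higher. Of all tested genes, 7.76% were lower and 7.64% higher (15.4% in either direction). Over the 14 the median was -0.33 on the log2 scale. Kif5a, a neuronal kinesin heavy chain, stood at 28.4 CPM in the knockdown and 154 CPM in the control library, a ratio of 0.185 (0.167 to 0.204). Kif5c, another neuronal kinesin, had a ratio of 0.244 (0.224 to 0.265), and Dync1i1, a dynein intermediate chain of neurons, 0.218 (0.187 to 0.254). The widely expressed Kif5b was named as their relative after its value was seen, with a ratio of 0.860 (0.801 to 0.924). Fez1, a kinesin adaptor, had a ratio of 1.88 (1.80 to 1.97). Klc1, Dync1h1 and Kif1b, the highest of the list by mean CPM of both libraries, had log2 folds of -0.60, -0.35 and -0.09.

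Of the transcription factors described for these genes, 24 passed the minimum, of which 1 was at least 2-fold higher and 2 were lower, near the 15.4% of all tested genes. On the log2 scale their median was 0.25. Rbpj, the DNA-binding partner of Notch, stood at 51.6 CPM in the knockdown and 22.8 CPM in the control library, a ratio of 2.27 (2.00 to 2.56). Fos, a part of AP-1, had a ratio of 0.313 (0.280 to 0.350), and Ebf1, a factor of early neurons, had 14 counts in the knockdown and 41 in the control library. Nfix, a nuclear factor I gene, stood at 779 CPM in the knockdown and 419 CPM in the control library, a ratio of 1.86 (1.81 to 1.91). Sox2 had a log2 fold of 0.73 and Pou3f3, a neural POU factor, 0.25. Stat3, the mediator of cytokine signals to the Gfap gene, and Nfia, which is needed for the onset of gliogenesis, were named for these roles after their values were seen. Stat3 had a ratio of 1.22 (1.16 to 1.28) and Nfia 1.67 (1.58 to 1.77).

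**Figure D4:**
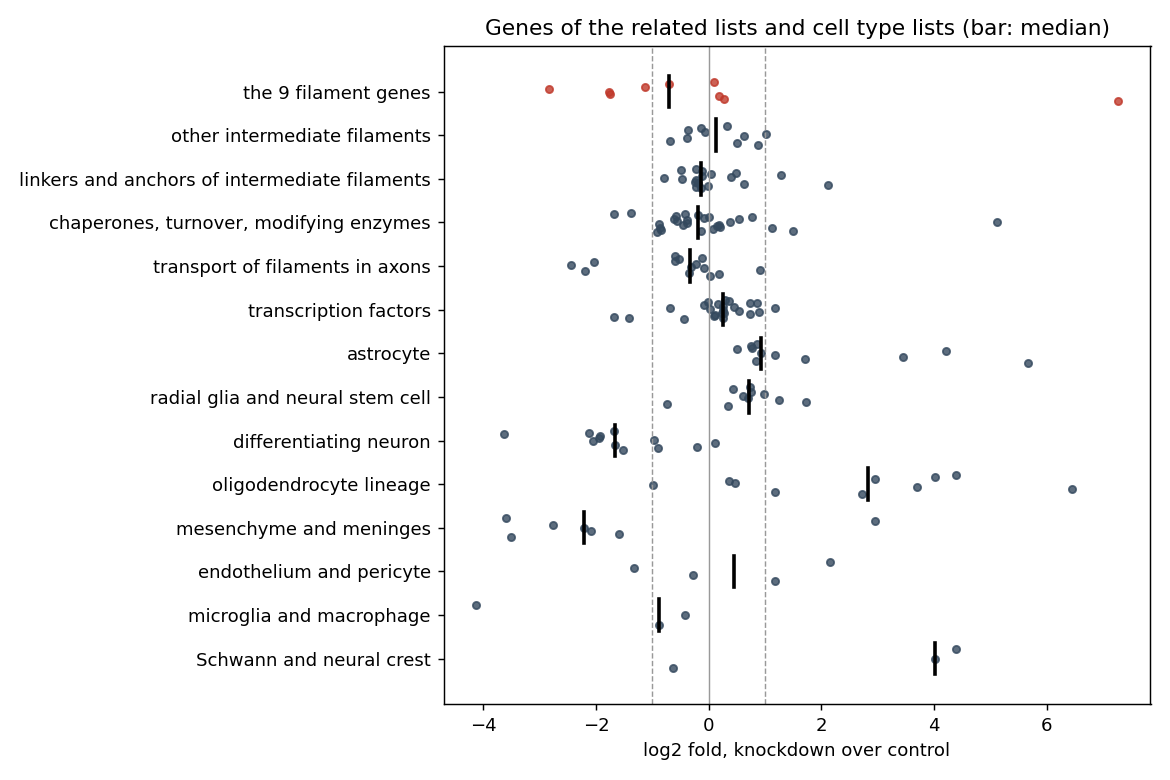
Log2 fold (knockdown over control) of each gene whose mean reaches 1 CPM in the filament family (red) and in the related and cell type lists (dark), with the median of each list as a black bar, a line at 0 and dashed lines at 2-fold. The filament genes spread from -2.84 to 7.27. Of the other intermediate filament genes, 1 of 10 lies past 2-fold, near the 15.4% of all tested genes.

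Marker genes of the cells known to make each filament were set beside these values, and their part in the filament values was not tested. The background for all marker counts is again 7.64% higher and 7.76% lower of all tested genes. Of 11 astrocyte markers, 5 were at least 2-fold higher and 0 lower. Their median was 0.93 on the log2 scale, and their summed level was 2385 CPM in the knockdown and 1076 CPM in the control library. Agt had a log2 fold of 5.66, S100b 4.20, the water channel Aqp4 3.45 and Aldoc 1.72, all below the 7.27 of Gfap. Of 10 radial glia and stem cell markers, 2 were at least 2-fold higher and 0 lower, the median being 0.72. Their summed levels were 4106 CPM in the knockdown and 2959 CPM in the control library. Fabp7 alone made up most of each sum, at 2714 CPM in the knockdown and 2146 CPM in the control library. Hes5 had a log2 fold of 1.73 (with 433 of its exonic bases shared with a gene on the opposite strand), Msi1 1.26, Pax6 0.99 and Prom1 0.74 (with 424 bases shared with an antisense gene). The Notch target Hes1, chosen after its value was seen as the 1 marker of this list below its control level, had a ratio of 0.601 (0.540 to 0.667). Of 10 oligodendrocyte lineage markers, 7 were at least 2-fold higher and 0 lower, the median being 2.84, with summed levels of 5275 CPM in the knockdown and 3011 CPM in the control library. Olig1 and Olig2, named after their values were seen, made up most of each sum. Olig1 stood at 2432 CPM in the knockdown and 1751 CPM in the control library, a ratio of 1.39. Olig2 stood at 1401 CPM in the knockdown and 1087 CPM in the control library, a ratio of 1.29. Besides Gpr17, Sox10 had a log2 fold of 4.39 and Mbp 3.70. The 1 marker below its control level, Mog, a gene of mature myelin named after its value was seen, had 11 counts in the knockdown and 24 in the control library. Its log2 fold was -0.995, and it counts as 2-fold lower with DESeq2 factors, total counts or the authors' CPM.

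Differentiating neurons were followed by 12 markers, of which 8 lay at least 2-fold lower and 0 higher. Their median log2 fold was -1.66, beside -1.77 for Ina, -2.84 for Nefl and -1.12 for Nefm. Their summed level was 1547 CPM in the knockdown and 3679 CPM in the control library. Syt1 had a log2 fold of -3.62, Tbr1 -2.13, Neurod6 -2.06 and Snap25 -1.95. Among markers of peripheral and motor neurons, 5 of 10 had a row and 0 passed the minimum. Summed, they stood at 2.09 CPM in the knockdown and 2.91 CPM in the control library. Chat had 0 counts in the knockdown and 5 in the control library.

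Markers of cells outside the neural lineage, some of which also make vimentin, were set beside the members in the same way. Of 7 mesenchymal and meningeal markers past the minimum, 6 were at least 2-fold lower and 1 (Pdgfra) was higher, the median being -2.21 on the log2 scale. Their summed level was 163 CPM in the knockdown and 349 CPM in the control library. Postn had a log2 fold of -3.60, Acta2 -3.51 and Dcn -2.76, while Pdgfra, also a marker of oligodendrocyte progenitors and sharing 456 exonic bases with an antisense gene, had 2.94. Pdgfra alone stood at 122 CPM in the knockdown and 15.8 CPM in the control library. Acta2 stood at 22.8 CPM in the knockdown and 261 CPM in the control library, most of the control sum. Lum was at 0 in the knockdown library and had 27 counts in the control library. The 4 endothelial and pericyte markers that passed included 2 that lay at least 2-fold higher (Pdgfrb at a log2 fold of 2.16 and Cspg4 at 1.18). Kdr was lower at -1.33 and Egfl7 was at -0.27. Cdh5, under the minimum, had 0 counts in the knockdown and 7 in the control library. Cspg4 is also in the oligodendrocyte list and stood at 99.6 CPM in the knockdown and 43.9 CPM in the control library, most of this list's sum in each. Their median was 0.45, and -0.08 without the minimum. Summed levels of this list were 108 CPM in the knockdown and 49.4 CPM in the control library. Of 10 microglia and macrophage markers, 3 passed the minimum, Lyz2 at a log2 fold of -4.13, Aif1 at -0.88 and Cd68 at -0.41, with summed levels of 12.3 CPM in the knockdown and 38.3 CPM in the control library. C1qb, Csf1r, Cx3cr1 and Ptprc were at 0 in the knockdown library. In the control library they had only 14, 21, 8 and 11 counts, in that order. Schwann and neural crest markers had 3 of 5 past the minimum, of which Sox10 also belongs to the oligodendrocyte list and Ngfr had a log2 fold of -0.63. Their summed level was 324 CPM in the knockdown and 19.5 CPM in the control library. Both erythroid markers with a row lay under the minimum, with a summed level of 0.380 CPM in the knockdown and 0.415 CPM in the control library.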

How the data were processed

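RNA of 1 knockdown and 1 control library was sequenced. Per the file headers, the authors deposited a raw count of each gene in each library. Tools named in the submitters' processing notes, without roles or order, are HTSeq 0.6.0, TopHat2 2.0.12 and Bowtie2 2.2.3, with the build mm9. All 9 filament genes have the start and end of GENCODE M21 (GRCm38), so positions are given as GRCm38. The authors' normalised columns are CPM, with a count of 0 written as 0.5 counts. The deposited fold column divides knockdown by control CPM, the deposited log2 column is its log2, and their deposited p-values come with no named test and were not used.

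Counts were scaled with TMM factors from edgeR 4.0.16 in R 4.3.3 (0.982 for the knockdown and 1.02 for the control library). The log2 fold adds 0.5 counts. Ratios carry exact conditional binomial 95% intervals and shares exact Clopper-Pearson 95% intervals (scipy 1.17.1), which cover counting error only. PCR copies are not independent molecules. With 1 library per group, genes were counted by 2-fold among the 14158 with a mean of at least 1 CPM. Exonic length is the union of annotated exons. The calculation was tested on simulated data.

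Beside all 9 members and Ccdc25, the text names up to 4 genes of each list by absolute log2 fold, the 3 most abundant of each related list, and the 3 nearest in fold to Gfap and Nefl; 1 gene that this rule selects is not reported here. The members and lists were chosen with earlier results of these data known. Alternatives were DESeq2 1.42.0 size factors, total counts, the authors' CPM, other priors, minimums and thresholds, and other lengths and sums.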

Additional observations from a re-analysis of the deposited data

How the results depend on the processing

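No paired analysis was possible because each group has 1 library, and for the same reason no replicate could be left out. DESeq2 factors moved each member's log2 fold by -0.016, total counts by -0.052 and the authors' CPM by -0.052. No member changed direction or its side of 2-fold under these scalings or with a prior count of 5. The log2 fold of Vim was 0.23 and that of Nes 0.13 with total counts and with the authors' CPM. The log2 ratio of the glial sum, 0.41, was 0.39 with DESeq2 factors, 0.36 with total counts or the authors' CPM, and 0.84 without Vim.

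The share of Gfap in the knockdown library was 11.5% per kilobase of exonic length, 35.4% without Vim, 11.9% per kilobase of the longest transcript and 11.4% per kilobase of exonic length not shared with another gene. Its share in the control library without Vim was 0.329%. The last 2 lengths were chosen after seeing the data. Nefl over Nefm was 0.384 in the knockdown and 1.27 in the control library per kilobase of exonic length. Per kilobase of unshared length it was 0.462 in the knockdown and 1.53 in the control library. A length rescales this ratio alike in both libraries, so it cannot change the fold difference between them. Reads from the shared stretch were not removed, so the overlap of Nefl and Nefm was not tested. Nefl and Nefm summed were 0.313 of Ina in the knockdown and 0.285 in the control library, so the lower proportion of Nefl to Ina does not extend to the sum.

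Over all genes, 2259 of 14158 were higher and 2218 lower at 1.5-fold. At 2-fold without an expression minimum, 2286 of 19595 were higher and 2475 lower. With a minimum of 10 CPM, 500 of 10187 were 2-fold higher and 496 lower. Of the other intermediate filaments, 0 were 2-fold higher with DESeq2 factors, total counts, the authors' CPM or a minimum of 10 CPM. Without a minimum, 3 of 18 were lower. Without a minimum, 2 of 21 linkers were lower and 4 of 28 transcription factors higher. With a minimum of 10 CPM, 1 of 15 linkers was higher and 1 of 21 transcription factors lower. These list counts are near the shares of all genes under the same settings.

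With 13 to 24 counts, Nefh and Prph are limited by depth.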

Other observations

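Some filament genes under the expression minimum had more counts in the control library, and they are named after their values were seen. Krt222, a keratin relative, had 2 counts in the knockdown and 21 in the control library, a ratio of 0.102 (0.0116 to 0.416). Krt73 had 1 count in the knockdown and 8 in the control library, a ratio of 0.134 (0.00301 to 0.996). Sync, which encodes syncoilin, a filament protein best known from muscle, had 1 count in the knockdown and 10 in the control library, a ratio of 0.107 (0.00246 to 0.751). Krt7 had 0 counts in the knockdown and 5 in the control library, as did the desmosomal linker Dsp. Desmin (Des) was near the floor in both, with 4 counts in the knockdown and 5 in the control library. Others did not go this way. Bfsp1 had 17 counts in the knockdown and 10 in the control library, Krt80 2 and 1, and the linker Ppl 7 and 5. In the same order, Krt17 had 2 and 2 and Krt18 2 and 3. Without a minimum, 3 of 18 other intermediate filament genes were at least 2-fold lower, beside 2475 of all 19595 genes.

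Among the cytoskeletal genes of neurons, the microtubule-associated gene Map2 did not share the lower level of the neuronal filaments. It is named after its value was seen. Map2 stood at 527 CPM in the knockdown and 489 CPM in the control library, a ratio of 1.08 (1.05 to 1.11). The neuronal tubulin Tubb3 stood at 344 CPM in the knockdown and 1098 CPM in the control library, a ratio of 0.314 (0.304 to 0.323).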
